A study of Mus musculus with 8 samples.

Results

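The glycolysis, lactate and hypoxia genes described here are the 38 genes of a list of symbols given for this work, out of 24346 symbols in the deposited tables. They comprise the enzymes from hexokinase to lactate dehydrogenase, the kinase that sets fructose-2,6-bisphosphate, the gate of pyruvate into mitochondria, the oxygen-sensing system, 7 genes known to be induced in low oxygen, and fructose bisphosphatase. The rule that picks them uses symbols and no expression value, but the list was chosen with earlier results of these data known. RNA from the uterine epithelium of mice was sequenced in 8 libraries, 3 labelled control and 5 labelled Smad2/3 cKO, called cKO below. SMAD2 and SMAD3 are the proteins that carry TGF-beta and activin signals from the receptor to the nucleus. In the cKO mice both genes were floxed, Smad2 around exons 9 and 10 and Smad3 around exons 2 and 3, and were cut by a Cre recombinase knocked into the progesterone receptor locus (Pgr-cre), which acts in every cell type that uses that locus and not in the epithelium alone. All lines were kept on a mixed C57BL/6/129S6/SvEv background. The alleles carried by the control mice, the age of the animals, the stage of the cycle, the isolation of the epithelium, and whether each library came from a separate animal are not stated in the sources used here, so the p-values below measure the spread between these libraries.

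Glycolysis splits glucose into pyruvate in the cytosol. Pyruvate is either burned in mitochondria after the pyruvate dehydrogenase complex, or reduced to lactate by lactate dehydrogenase, a tetramer built of A and B subunits whose mix differs between tissues. In low oxygen, HIF-1 alpha escapes the prolyl hydroxylases that mark it for destruction through the von Hippel-Lindau protein, and raises transcription of many glycolytic genes. HIF-1 alpha is regulated mostly as a protein, which RNA levels do not show. In the uterus, glucose and lactate handling by the epithelium is known to change with steroid hormones and around implantation.

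Ldhb, Hk1 and Pfkp were higher in cKO, and no other member was called. Each belongs to a step with several isoenzymes, as do most of the listed glycolytic enzymes. Values are FPKM (fragments per kilobase of transcript, relative to the mapped fragments of the library) after scaling the libraries to each other, and fold changes are cKO minus control on log2(scaled FPKM + 1), a scale that understates changes of low genes. Of the 38 genes, 35 were high enough to test, and 3 were called higher (8.57%) and 0 lower at a limma Benjamini-Hochberg adjusted p below 0.05. These were Ldhb, Hk1 and Pfkp. Among all 11315 tested genes 14.3% were called, 823 higher (7.27%) and 790 lower (6.98%), so the members' share was near the background or below it. With TPM in place of scaled FPKM the split of all calls moved to 512 higher and 1616 lower and the median of all tested genes from -0.005 to -0.20 on the log2 scale, and 5 members were then called lower. At an unadjusted p below 0.05 there were 6 members higher and 4 lower, and 31.5% of all tested genes passed that limit in either direction. The libraries of both groups did not overlap for 4 members that were higher in cKO and 3 that were lower, which is 7 of 35 against 24.6% of all tested genes (11.7% higher and 12.9% lower). The median log2 fold change was 0.07 over the tested members, 20 of them positive and 15 negative. Pdk4 and Fbp1 were too low to test, and Eno1 was listed at 0, as described with the enolases.

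**Figure D1:**
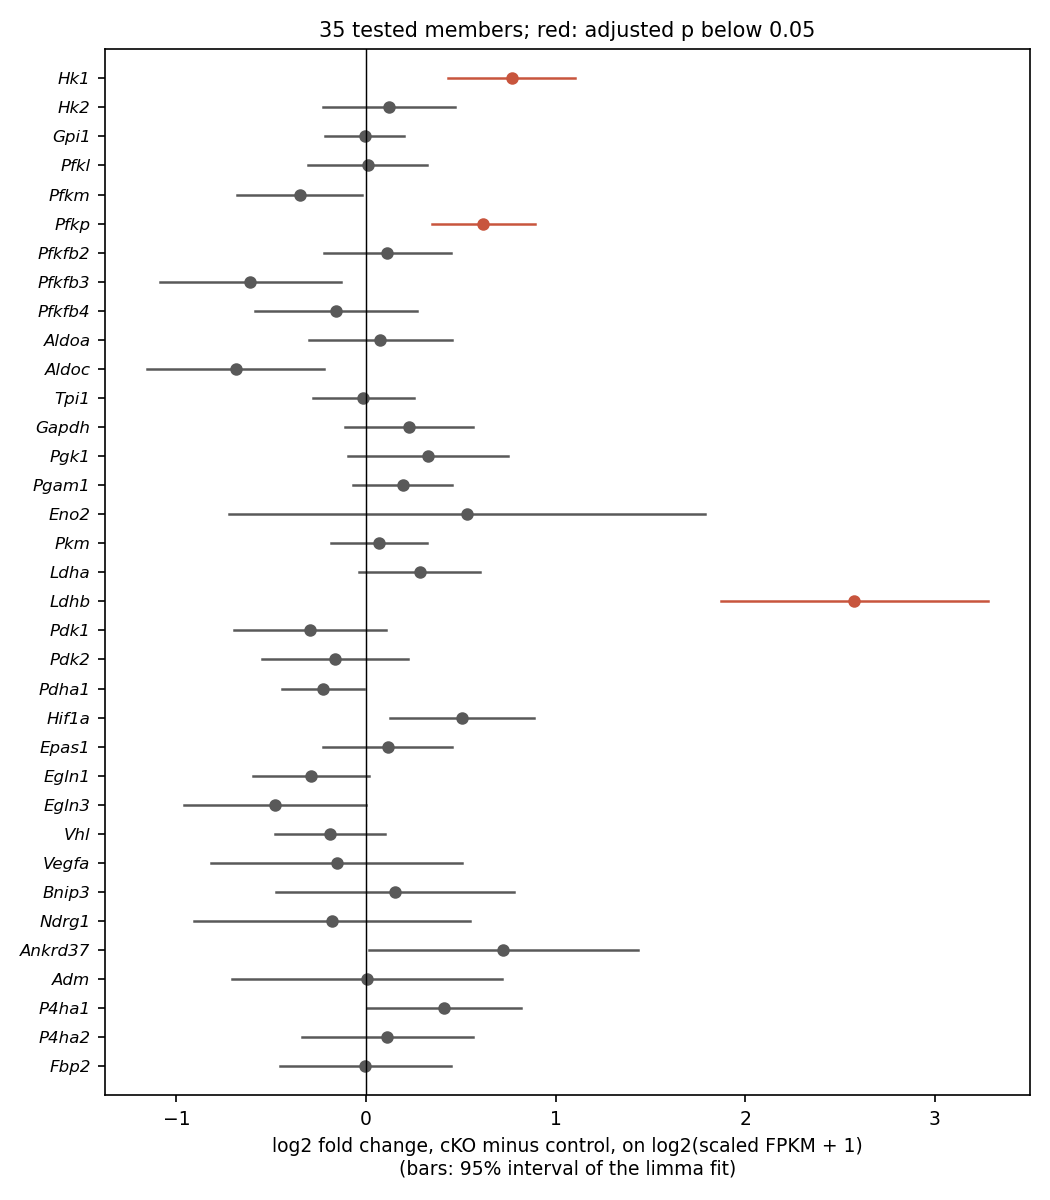
Log2 fold changes (cKO minus control, horizontal axis) of the 35 tested members in pathway order, with bars for the 95% interval of the limma fit; coloured points passed an adjusted p below 0.05. Ldhb stands at 2.58, Hk1 at 0.77 and Pfkp at 0.62, and most other intervals include 0.

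The libraries held an estimated 42.9 to 53.9 M mapped fragments. Smad2 was lower in every cKO library (exact permutation test, two-sided, p = 0.0179, the smallest that 56 splits allow). Smad3 ranged from 25.6 to 31.5 in control and from 20.6 to 42.6 in cKO (exact permutation p = 0.768); its value covers the whole transcript, of which 2 exons were floxed. Epithelial markers (8 genes) summed to 4637 to 5032 FPKM in control and 3780.0 to 6453 in cKO, and none was called. Of 6 neutrophil markers, none at 0, 2 were called higher, and their sum was 213 to 413 in control and 309 to 1987 in cKO. Of 6 macrophage and leukocyte markers 5 were tested, 3 with a positive and 2 with a negative log2 fold change. Only Cd74 was called, lower, and their sum was 143 to 177 in control and 83.0 to 146 in cKO. Endothelial markers (7 genes, 3 tested) and red cell markers (5 genes, 2 tested) had 0 called. Of 10 proliferation markers, 9 were tested and none was called, though all 9 had an unadjusted p below 0.05; the sum was 7.42 to 11.0 in control and 7.81 to 248 in cKO. Smooth muscle markers (7 genes, 0 called) summed to 59.2 to 333 against 17.7 to 112, and stromal markers (10 genes, 7 tested, 1 called lower) to 114 to 255 against 56.9 to 251. Gland markers summed to 0.484 to 1.09 against 4.62 to 6.3 through Foxa2 (called higher), with Spink1 and Prss28 at 0 in all libraries. In bulk RNA, more cells of a type and more RNA per cell cannot be told apart. The titles of cKO 1 and cKO 2 are numbered in a different range from the remaining 6, the main title series, and the calls of Ldhb, Hk1 and Pfkp are given with those 6 alone as well.

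Ldhb had the largest log2 fold change of the tested members. It encodes the B (heart-type) subunit, which is abundant in oxidative tissues, and Ldha the A (muscle-type) subunit, a textbook target of HIF-1 alpha. The 250 bases before a start of each gene are shown because the subunits behaved differently. They are from RefSeq's GRCm38.p6 table, 5′ to 3′ on the gene's strand. Capitals mark ACGTG or GCGTG, the cores of the hypoxia response element, on either strand (CACGT and CACGC are the same letters on the other strand, and CACGTG counts once on each). The Ldhb window lies at chr6:142507958-142508207 on the minus strand and the Ldha window at chr7:46845554-46845803 on the plus strand.
Ldhb: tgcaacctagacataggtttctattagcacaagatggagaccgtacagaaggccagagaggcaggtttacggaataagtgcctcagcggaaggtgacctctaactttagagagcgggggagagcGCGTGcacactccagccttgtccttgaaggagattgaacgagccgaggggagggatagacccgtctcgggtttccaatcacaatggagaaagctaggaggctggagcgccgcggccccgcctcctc
Ldha: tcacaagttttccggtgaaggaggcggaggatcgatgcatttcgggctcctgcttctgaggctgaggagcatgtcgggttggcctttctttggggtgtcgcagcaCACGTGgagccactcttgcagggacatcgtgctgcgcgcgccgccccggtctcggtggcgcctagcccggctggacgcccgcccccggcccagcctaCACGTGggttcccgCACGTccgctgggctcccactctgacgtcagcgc
The Ldhb window held 0 ACGTG and 1 GCGTG, and the printed Ldha window 5 ACGTG and 0 GCGTG. Another Ldha window, at chr7:46846832-46847081, held 0 ACGTG and 1 GCGTG, the same counts as that of Ldhb. A match is a description of the letters and shows no binding.

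Ldhb (chr6:142490249-142507957) stood at 46.0, 61.1 and 59.5 scaled FPKM in the control libraries and at 355, 303, 474, 175 and 464 in cKO 1 to 5. Every cKO library lay far above every control, and cKO 4 was the lowest of its group. The mean rose from 55.5 ± 8.33 (SD, n = 3) to 354 ± 124 (n = 5), 6.38-fold, with a log2 fold change of 2.58 ± 0.31 (SE) and a limma adjusted p of 0.00178. The call held under all 18 alternatives tried, with log2 fold changes of 2.37 to 2.81 and adjusted p of 0.000248 to 0.016, and the main title series alone gave 2.59. The 38 genes had 70 transcripts, of which 45 were tested, 4 were called higher and 1 lower. Both annotated Ldhb transcripts were among those higher. The longer went from 28.8, 38.4 and 41.4 in control to 219, 186, 286, 100.1 and 292 in cKO, a log2 fold change of 2.47 ± 0.34 with an adjusted p of 0.0047 over 13380 tested transcripts, of which 10.1% were called. The shorter went from 17.2, 22.8 and 18.1 to 136, 117, 188, 74.8 and 172, a log2 fold change of 2.71 ± 0.28 with an adjusted p of 0.0015. The split of fragments between transcripts of a gene is Cufflinks' estimate.

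Ldha (chr7:46845804-46855627) was far more abundant and did not pass. Its levels were 644, 592 and 500.0 in control and 745, 665, 621, 767 and 716 in cKO, so that cKO 3 fell among the controls. The log2 fold change was 0.28 ± 0.14, with a 95% interval of -0.03 to 0.60 and an adjusted p of 0.199. Since FPKM is per length, the subunit genes can be set side by side: Ldhb made up 6.66%, 9.35% and 10.6% of the sum of Ldha and Ldhb in control, and 32.3%, 31.3%, 43.3%, 18.6% and 39.3% in cKO. The share of the B subunit RNA was thus higher in each cKO library than in any control, at 33.0% ± 9.46 against 8.89% ± 2.03. The sum of both subunits was 689.9, 654 and 559.5 in control and 1100.2, 968, 1095, 942 and 1180.4 in cKO, again without overlap. Neutrophil marker sums in cKO 1 to 5 were 1269.6, 1193, 1987, 309 and 1795, the same order of libraries as that of Ldhb. Most of each sum came from S100a8 and S100a9. The mean log2 level of the 6 neutrophil markers was 5.328, 6.035, 6.515, 4.334 and 5.776 in cKO 1 to 5. That order differed from the order of Ldhb, though cKO 4 was again lowest and cKO 3 highest. Proliferation marker sums were 42.5, 7.81, 248, 108 and 53.0. The neutrophil sum of cKO 4 (Ldhb 175) and the proliferation sum of cKO 2 (Ldhb 303) lay within the control range. Single neutrophil markers in cKO 4 differed in this. Retnlg (2.39), Cxcr2 (7.77) and Il1r2 (13.6) lay above the highest control (1.57, 7.52 and 13.2), and S100a8, S100a9 and Csf3r within the control range. The part of either marker level in the Ldhb difference was not tested.

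**Figure D2:**
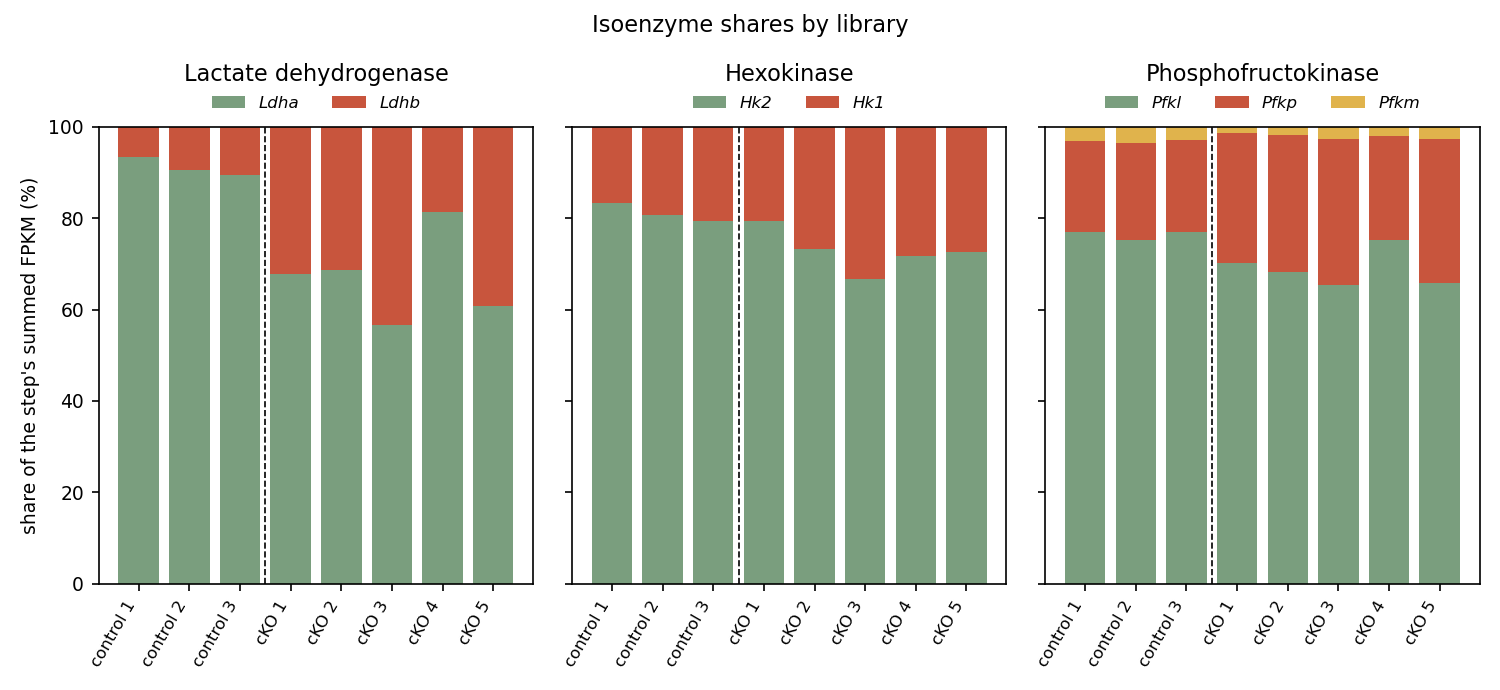
Share of each isoenzyme gene in the summed FPKM of its step (vertical axis, %), by library, for hexokinase, phosphofructokinase and lactate dehydrogenase; the dashed line parts control from cKO. Ldhb takes 6.66% to 10.6% of lactate dehydrogenase in control and 18.6% to 43.3% in cKO.

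At the head of the pathway, hexokinase traps glucose in the cell by phosphorylating it. Hk1 is the broadly expressed form, and Hk2 the inducible form of muscle, fat and many tumours. Hk1 (chr10:62268855-62379908) read 14.8, 18.5 and 17.3 in control and 26.9, 30.8, 38.7, 26.9 and 24.9 in cKO. All cKO libraries were above all controls. The mean rose 1.76-fold, from 16.9 ± 1.89 to 29.7 ± 5.5, with a log2 fold change of 0.77 ± 0.15 and an adjusted p of 0.0127. The call was lost without control 3 (adjusted p = 0.0567) and with TPM (0.0609), and held in 16 of 18 alternatives, the main title series alone among them (0.78, adjusted p = 0.0425). Of its annotated transcripts, the one that starts upstream was listed at 0 in all 8 libraries, and all of the FPKM stood in the transcript that starts at position 62340421. The 250 bases before that start, at chr10:62340422-62340671 on the minus strand, are shown. Which start was used was not measured, as the split between transcripts is an estimate and a listed 0 can be a failed split. Below it stands the window of Pfkp, the other upper-pathway gene called higher, at chr13:6648772-6649021 on the minus strand (capitals as above).
Hk1: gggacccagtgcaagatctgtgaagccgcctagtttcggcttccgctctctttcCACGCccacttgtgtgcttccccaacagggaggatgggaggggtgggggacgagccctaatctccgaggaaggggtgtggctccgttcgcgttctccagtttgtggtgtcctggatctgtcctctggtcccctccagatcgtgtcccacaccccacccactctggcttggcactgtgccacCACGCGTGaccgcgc
Pfkp: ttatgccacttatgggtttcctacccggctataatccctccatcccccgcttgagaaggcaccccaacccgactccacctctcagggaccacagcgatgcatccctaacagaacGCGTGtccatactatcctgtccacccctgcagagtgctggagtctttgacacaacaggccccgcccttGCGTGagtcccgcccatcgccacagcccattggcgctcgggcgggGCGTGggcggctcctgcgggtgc
The Hk1 window held 0 ACGTG and 3 GCGTG, where the window of the upstream start held 0 of each, and the Pfkp window held 0 ACGTG and 3 GCGTG.

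Hk2 remained the more abundant hexokinase, at 73.9, 77.5 and 66.2 in control and 104, 84.6, 77.6, 68.2 and 65.6 in cKO. The groups overlapped, and the log2 fold change was 0.12 ± 0.15 (95% interval -0.23 to 0.47, adjusted p = 0.614); its sign turned with TPM (-0.08). Hk1 accounted for 16.7% to 20.7% of the sum of both in control and 20.6% to 33.3% in cKO, where cKO 1 fell within the control range. Gpi1, the isomerase that makes fructose-6-phosphate, was at 59.5, 52.4 and 52.0 in control and 55.3, 56.5, 49.0, 53.8 and 57.3 in cKO. Its log2 fold change was -0.01 ± 0.09, with a 95% interval of -0.215 to 0.202 under the scaling used. The log2 fold change of Gpi1 was -0.211 with TPM and -0.173 with quantile normalization, and Gpi1 was called in neither.

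Phosphofructokinase is the committed, regulated step. Its liver-type gene Pfkl was the most abundant, at 79.3, 79.0 and 76.5 in control and 92.0, 83.9, 63.2, 89.4 and 69.3 in cKO; the mean hardly differed while the cKO libraries spread to both sides of the controls (log2 fold change 0.01 ± 0.14, adjusted p = 0.972). Its sign turned under 9 of 18 alternatives. Pfkp, the platelet type, rose. Pfkp (chr13:6579874-6648771) stood at 20.7, 22.3 and 20.0 in control and 37.2, 36.8, 30.8, 26.8 and 33.1 in cKO, without overlap. The mean went from 21.0 ± 1.21 to 33.0 ± 4.33, 1.57-fold, with a log2 fold change of 0.62 ± 0.12 and an adjusted p of 0.0125. This call was lost without control 2 (adjusted p = 0.0509), without control 3 (0.0703) and with a term for stromal and muscle markers (0.0657), and held in the main title series alone (0.50, adjusted p = 0.0337). Pfkp overlaps Pitrm1, which had a mean of 7.2, and the sources used here do not give the use of strand in counting.

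Pfkm, the muscle type, was a minor form, and it overlaps Senp1, which had a higher mean of 4.44. It read 3.12, 3.74 and 2.93 in control and 1.63, 2.15, 2.63, 2.57 and 2.83 in cKO; each cKO library was below each control, but the difference did not pass (log2 fold change -0.35 ± 0.14, adjusted p = 0.137). Of the summed phosphofructokinase FPKM, Pfkp took 20.0% to 21.2% in control and 22.6% to 31.9% in cKO, again without overlap. Hk1, like the neutrophil sum and the proliferation sum, was highest in cKO 3. It was lowest in cKO 5 (24.9), whose neutrophil sum was 1795. Pfkp, like the neutrophil sum, was lowest in cKO 4, but it was highest in cKO 1 (37.2) and cKO 2 (36.8). The neutrophil sums of cKO 1 and cKO 2 were 1269.6 and 1193, and their proliferation sums 42.5 and 7.81. The part of these marker levels in the rises of Hk1 and Pfkp was not tested.

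The bifunctional PFKFB enzymes make and remove fructose-2,6-bisphosphate, the strongest activator of phosphofructokinase. None was called. Pfkfb3, the form that strongly favours synthesis and is known to be induced in low oxygen, was at 27.1, 45.6 and 43.5 in control and 25.2, 23.6, 27.9, 17.5 and 29.8 in cKO. Control 1 lay among the cKO libraries, and the log2 fold change was -0.61 ± 0.21 (95% interval -1.085 to -0.13, adjusted p = 0.0885); it was called lower without control 1, with TPM and with array weights. Of the 8 Pfkfb3 transcripts, 5 were listed at 0 in all libraries and 1 was called lower. That transcript, of 5105 bases, was at 6.51, 11.0 and 9.68 in control and 3.86, 5.27, 4.62, 3.26 and 6.11 in cKO (log2 fold change -0.835 ± 0.21, adjusted p = 0.0409), a call lost in 7 of 11 alternatives. The most abundant Pfkfb3 transcript, of 5018 bases, was at 20.6, 28.9 and 27.0 against 7.78, 12.3, 19.4, 10.9 and 15.4, with an adjusted p of 0.052. A transcript with a further upstream start was listed at 0 in control 1 and read 5.7 and 6.79 in control 2 and 3, against 13.6, 6.05, 3.87, 3.31 and 8.37 in cKO. Pfkfb2 spanned 9.89 to 10.6 in control and 8.43 to 14.3 in cKO (adjusted p = 0.627), and Pfkfb4 12.8 to 14.3 and 8.12 to 16.1 (0.599).

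**Figure D3:**
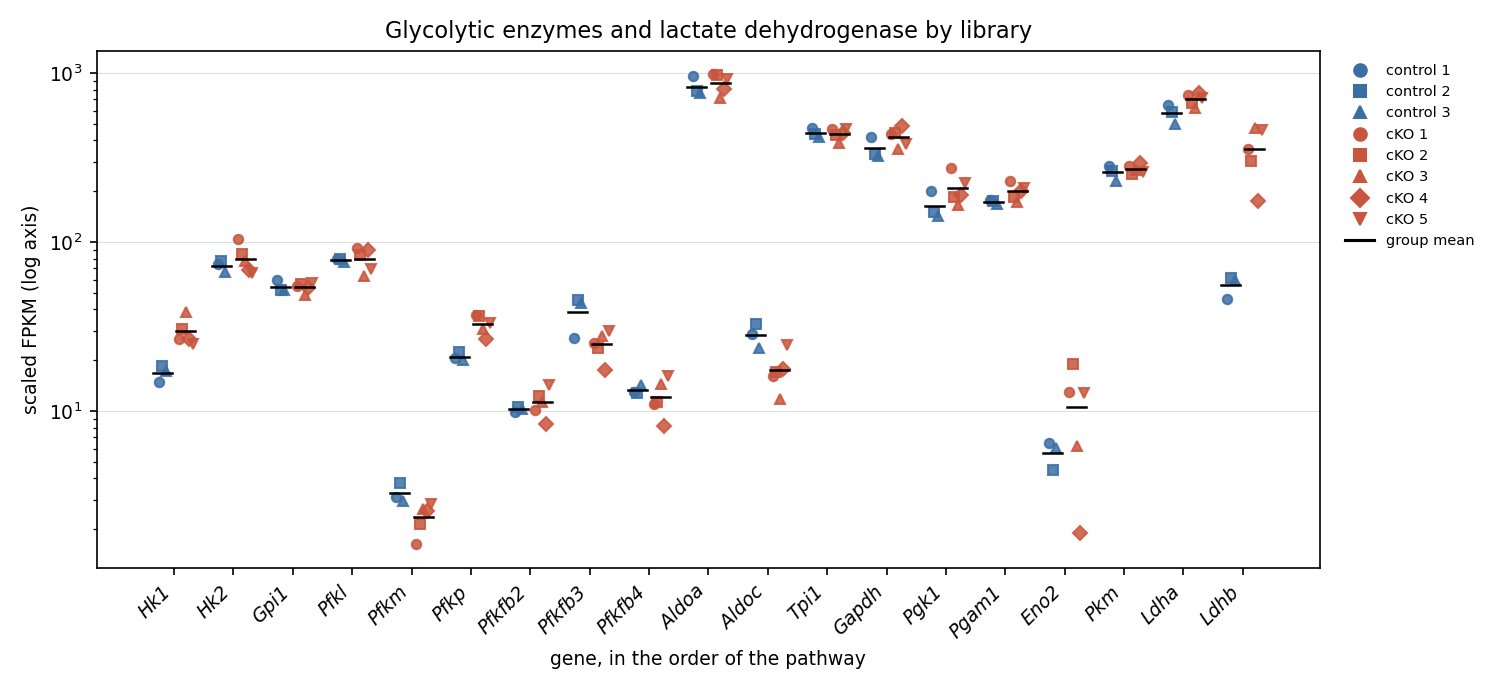
Scaled FPKM (logarithmic vertical axis) of the glycolytic, PFKFB and lactate dehydrogenase genes in the order of the pathway, with a point per library and a line at each group mean. Aldoa, Ldha, Tpi1 and Gapdh lie highest in both groups, and the cKO points of Ldhb, Hk1 and Pfkp lie above all control points.

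The lower pathway, from aldolase to pyruvate kinase, runs mostly on a single abundant gene per step, and none of these genes was called. Aldoa, the main aldolase, which splits fructose-1,6-bisphosphate, was the most abundant member, at 958, 781 and 761 in control and 985, 979, 708, 801 and 928 in cKO (log2 fold change 0.08 ± 0.17, 95% interval -0.30 to 0.45, adjusted p = 0.787). Aldoc, the brain-type aldolase, was at 28.8, 32.7 and 23.5 in control and 16.1, 17.1, 11.8, 17.8 and 24.7 in cKO. Of its cKO libraries only cKO 5 reached a control, and the log2 fold change of -0.69 ± 0.21 (95% interval -1.15 to -0.22) just missed the threshold at an adjusted p of 0.0579. Aldoc was called lower without cKO 5, without scaling, with TPM, with quantile normalization and with array weights.

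Tpi1, which interconverts the triose phosphates, was at 474, 439 and 417 in control and 465, 431, 388, 444 and 469 in cKO, with a log2 fold change of -0.015 ± 0.12 (95% interval -0.28 to 0.25). Gapdh, which makes the first NADH of the pathway and is often used as a reference gene, was at 419, 333 and 325 against 434, 443, 356, 489.6 and 379.6. Its log2 fold change was 0.23 ± 0.15 (95% interval -0.11 to 0.57, adjusted p = 0.324), and 3 of 5 cKO libraries exceeded every control. Pgk1, the first ATP-forming enzyme, was at 200.0, 149.9 and 143 against 275, 184, 167, 189.8 and 223 (log2 fold change 0.33 ± 0.185, adjusted p = 0.257). Pgam1, the phosphoglycerate mutase, was at 177, 176 and 168 against 229, 184, 173, 202 and 209 (log2 fold change 0.19 ± 0.115, adjusted p = 0.28). For Pgk1 all cKO libraries, and for Pgam1 all but cKO 3, lay above the control mean, and the groups overlapped. Intervals of this width do not show that these enzymes were alike in the groups. Aldoa, Gapdh, Pgk1, Tpi1, Pgam1 and Ldha have near-identical processed pseudogenes in the mouse genome, and the sources used here do not give how shared reads were counted.

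Enolase makes phosphoenolpyruvate. Eno1, the ubiquitous form, was listed at 0 in all 8 libraries, while its near-identical copy Eno1b carried 675, 583 and 577 in control and 674, 643, 693, 721 and 625 in cKO. Eno1b has 2 rows in the deposited tables, and 1 of them lies at the Eno1 locus (chr4:150237324-150248873) with 224, 187 and 148 in control and 238, 217, 179, 232 and 165 in cKO. Summing the rows of both symbols gave a log2 fold change of 0.14 (adjusted p = 0.473), and the rows at the Eno1 locus alone 0.15 (adjusted p = 0.585); both sums were chosen after the values were seen. Eno2, the neuron-type enolase and a known hypoxia target, was low and uneven in cKO, at 6.49, 4.47 and 6.04 in control and 12.9, 19.1, 6.25, 1.89 and 12.8 in cKO. Its values in cKO lay both above and below the controls (log2 fold change 0.535 ± 0.55, adjusted p = 0.534).

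Pkm, pyruvate kinase, is spliced with either of 2 mutually exclusive exons, giving the M1 form of muscle and brain or the M2 form of proliferating and many epithelial cells. The gene as a whole stood at 283, 263 and 230.5 in control and 281, 254, 268, 292 and 259 in cKO (log2 fold change 0.07 ± 0.11, 95% interval -0.185 to 0.32). The alternative exons, each of 167 bases, differ at 64 positions (61.7% identical), which is what lets reads tell the forms apart. They are printed from the GRCm38 reference with the differing bases in capitals, the M2 exon from chr9:59675568-59675734 and the M1 exon from chr9:59675029-59675195, both on the plus strand.
Pkm M2 exon: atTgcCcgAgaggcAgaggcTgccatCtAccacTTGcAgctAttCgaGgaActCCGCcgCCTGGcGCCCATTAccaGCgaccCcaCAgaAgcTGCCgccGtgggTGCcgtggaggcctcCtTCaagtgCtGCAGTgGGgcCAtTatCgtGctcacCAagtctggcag
Pkm M1 exon: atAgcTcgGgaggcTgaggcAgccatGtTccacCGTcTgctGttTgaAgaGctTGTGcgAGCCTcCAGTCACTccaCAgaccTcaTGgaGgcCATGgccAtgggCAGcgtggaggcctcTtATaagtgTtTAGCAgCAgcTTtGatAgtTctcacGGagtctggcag
The M2 transcript dominated in every library, at 247, 234 and 204 in control and 238, 215, 239.6, 262 and 259 in cKO (log2 fold change 0.09 ± 0.11, adjusted p = 0.642 over transcripts). The M1 transcript was at 36.8, 28.6 and 26.0 in control and 43.2, 39.2, 28.0 and 30.7 in cKO 1 to 4, and was listed at 0 in cKO 5. A listed 0 can be a failed split between transcripts; without cKO 5 the log2 fold change of the M1 transcript was 0.20. Neither form was called.

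The spread between libraries was compared with that of all tested genes. Over the 6 steps with 1 gene (Gpi1, Tpi1, Gapdh, Pgk1, Pgam1 and Pkm), the median SD of log2 values was 0.129 in control and 0.133 in cKO, against 0.125 and 0.212 over all tested genes, so it was near the background in control and below it in cKO. Over the 16 tested enzymes of glycolysis and lactate dehydrogenase it was 0.153 and 0.212.

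Pyruvate dehydrogenase commits pyruvate to the mitochondrion, and its kinases switch it off. Pdha1, its catalytic alpha subunit, was at 56, 57.2 and 61.3 in control and 49.3, 42.9, 51.1, 51.9 and 52.8 in cKO. Each cKO library was below each control, yet the fall from 58.2 ± 2.78 to 49.6 ± 3.97 did not pass (log2 fold change -0.23 ± 0.095, 95% interval -0.445 to -0.01, adjusted p = 0.141); with TPM and with quantile normalization it did (0.0374 and 0.0372). Pdk1, the kinase induced by HIF-1 alpha, spanned 11.6 to 18.7 in control and 9.19 to 15.3 in cKO (adjusted p = 0.284). Pdk2 spanned 5.93 to 6.53 and 3.93 to 7.42 (0.535). Pdk4, the kinase of fasting muscle and liver, reached at most 0.363 in any library. The gluconeogenic counterpart of phosphofructokinase was nearly absent: Fbp1 reached at most 0.088, and Fbp2 was at 0.798, 1.49 and 1.35 in control and 0.658, 0.86, 1.56, 1.39 and 1.66 in cKO (adjusted p = 0.994).

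Of the 5 oxygen-sensing genes none was called, against 14.3% of all tested genes, and Hif1a came closest. Hif1a read 33.7, 27.1 and 26.0 in control and 35.7, 33.7, 40.0, 55.2 and 44.9 in cKO. The groups did not overlap, although control 1 and cKO 2 were equal to 3 digits. The mean was 28.9 ± 4.18 against 41.9 ± 8.58, 1.45-fold, with a log2 fold change of 0.51 ± 0.17 (95% interval 0.13 to 0.89) and an adjusted p of 0.0782. Among the main title series alone it was called higher (0.67, adjusted p = 0.0436), as it was with array weights. Epas1, encoding HIF-2 alpha, was at 38.5, 30.6 and 40.7 in control and 33.7, 48.2, 34.3, 38.4 and 44.6 in cKO, with overlap (log2 fold change 0.12 ± 0.15, adjusted p = 0.624).

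The prolyl hydroxylases lay on the other side of 0. Egln1, the main oxygen sensor in most cells, was at 80.8, 74.5 and 85.9 in control and 74.1, 73.3, 50.9, 64.5 and 67.5 in cKO. Each cKO library was below each control, with cKO 1 just under control 2, and the log2 fold change was -0.29 ± 0.13 (95% interval -0.59 to 0.015, adjusted p = 0.176). Egln3, a hydroxylase that is itself induced by low oxygen, was the most abundant of the sensing genes, at 296, 368 and 400.5 in control and 320.3, 295, 226, 172 and 275 in cKO (log2 fold change -0.48 ± 0.21, adjusted p = 0.159). Both were called lower with TPM and with quantile normalization. Vhl, which targets hydroxylated HIF for destruction, spanned 10.4 to 12.7 in control and 8.83 to 12.5 in cKO (adjusted p = 0.336).

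Of the 7 hypoxia targets 5 had a positive and 2 a negative log2 fold change. By limma 0 of 7 were called, against 14.3% of all tested genes. At an unadjusted p below 0.05 there were 2, against 31.5% of all tested genes, and array weights called 1, Ankrd37. The spread of the 7 targets among cKO libraries was wide, and is given as a description. The median SD of log2 values was 0.131 in control and 0.573 in cKO, against 0.125 and 0.212 over all tested genes. Vegfa, the angiogenic growth factor, was at 86.7, 79.0 and 84.6 in control and 89.1, 117, 60.1, 41.7 and 89.1 in cKO. The controls lay close together, and cKO libraries fell on both sides of them (log2 fold change -0.155 ± 0.29, 95% interval -0.82 to 0.51, adjusted p = 0.748). The same held for Ndrg1, a stress-induced gene, at 149.8, 136 and 152 against 216, 147, 80.9, 81.9 and 168. Bnip3, a mitophagy receptor, was at 65.2, 55.7 and 56 against 79.1, 63.8, 39.3, 56 and 108. Adm, the vasodilator peptide adrenomedullin, was at 50.6, 40.4 and 33.7 against 64.9, 56.9, 37.0, 22.3 and 38.6.

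Ankrd37 had the largest mean difference of the targets, at 45.5, 35.6 and 36.5 in control and 110.2, 90.4, 45.1, 41.6 and 62.0 in cKO. Its lower 2 cKO libraries fell within the control range, and the log2 fold change of 0.725 ± 0.31 did not pass (adjusted p = 0.152); it overlaps Ufsp2, which had a mean of 24.1. P4ha1 and P4ha2 encode collagen prolyl hydroxylase subunits. P4ha1 was at 18.3, 17.9 and 13.4 against 28.7, 24.4, 18.7, 17.0 and 23.5 (log2 fold change 0.41 ± 0.18, adjusted p = 0.156), and P4ha2 spanned 22.5 to 27.1 and 21.9 to 39.4 (adjusted p = 0.729). Of the 7 targets, cKO 1 was the highest cKO library for 5, cKO 2 for 1 and cKO 5 for 1, while cKO 4 was the lowest for 4 and cKO 3 for 3. These low libraries also had the highest proliferation marker sums, 248 in cKO 3 and 108 in cKO 4, against 42.5, 7.81 and 53.0 in cKO 1, cKO 2 and cKO 5, and cKO 1 and cKO 2 belong to the other title series; the part of either in the spread was not tested. Hif1a was highest in cKO 4, where Vegfa and Adm were lowest.

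**Figure D4:**
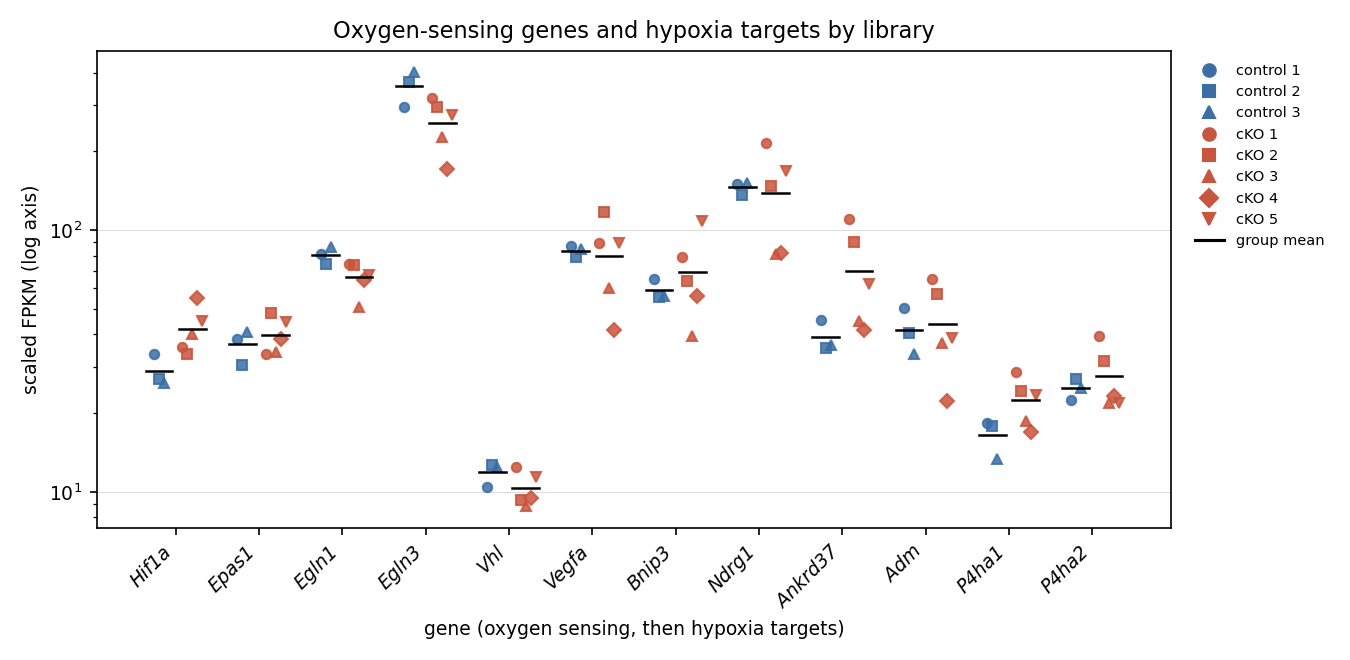
Scaled FPKM (logarithmic vertical axis) of the oxygen-sensing genes and the hypoxia targets, with a point per library and a line at each group mean. The control points of Vegfa lie between 79.0 and 86.7 and the cKO points between 41.7 and 117.

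RefSeq's promoter table (GRCm38.p6) held windows for 36 of the 38 genes. Of these, 31 (86.1%) had ACGTG or GCGTG on either strand in the 250 bases before a start, against 11226 of 27025 genes with a window (41.5%). By window, 41 of 53 (77.4%) held a core against 38.6% of all windows, with ACGTG in 43.4% against 16.6% and GCGTG in 52.8% against 28.2%. These shares were not matched for base composition or for the number of windows per gene. The list includes genes known to be induced in low oxygen, so its share of cores is not independent of how it was chosen. A core stood before genes that were called and before genes that were not: Ldha, with 5 ACGTG in the window printed above, did not pass, and 1 of 2 windows of Vegfa held none.

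Of 77 other genes of the same pathways, 65 were tested, 3 were called higher and 8 lower (16.9% against 14.3% of all tested genes). These 77 genes were chosen with earlier results of these data known, so their share is not independent of the data. Lactate and glucose carriers were among the called genes. Slc16a7 (MCT2), a carrier with high affinity for pyruvate and lactate, fell from 3.22, 6.62 and 5.97 to 0.258, 0.614, 0.879, 1.08 and 0.771 (log2 fold change -1.84 ± 0.23, adjusted p = 0.00216). Ldhd, the mitochondrial D-lactate dehydrogenase, fell from 18.4, 32.2 and 23.3 to 5.1, 6.15, 10.7, 7.4 and 8.08 (-1.595 ± 0.23, adjusted p = 0.00405). For both, every cKO library was below every control, and the calls held in every alternative in which the gene was tested (17 and 18). Slc2a4 (GLUT4), the insulin-regulated glucose carrier, fell from 2.98, 2.92 and 2.85 to 1.25, 1.54, 0.799, 0.901 and 1.07 (adjusted p = 0.00453), and its groups lay well apart. Slc2a12 (GLUT12), a low gene listed at 0 in control 2 and control 3 and at 1.11 in control 1, was at 1.4, 1.66, 1.69, 4.86 and 3.96 in cKO; it was called higher (adjusted p = 0.0367), a call lost in 6 of 17 alternatives, among them without control 2, without control 3, without cKO 4 and without cKO 5.

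The most abundant carriers were not called. Slc2a1 (GLUT1), the basal glucose carrier, was at 137, 138 and 129 in control and 199, 160.5, 123, 107 and 139 in cKO (log2 fold change 0.08 ± 0.19, adjusted p = 0.804). As with the hypoxia targets, cKO libraries fell on both sides of the controls. Slc16a3 (MCT4), the lactate exporter of glycolytic cells, was at 92.4, 88.5 and 90.5 against 111, 119, 102, 94.2 and 101. Its groups did not overlap, but the log2 fold change of 0.21 ± 0.10 did not pass (adjusted p = 0.182).

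Pck1, which makes phosphoenolpyruvate for gluconeogenesis, rose from 1.14, 0.264 and 0.856 to 4.49, 6.64, 2.27, 9.84 and 4.76 (log2 fold change 1.84 ± 0.35, adjusted p = 0.0124). The call was lost in 4 of 17 alternatives, among them without control 2 (adjusted p = 0.0701), without control 3 (0.0539) and the main title series alone (0.0503). Pdp2, a phosphatase that reactivates pyruvate dehydrogenase, fell from 3.16, 3.95 and 3.24 to 1.28, 1.44, 2.26, 2.47 and 1.99 (adjusted p = 0.0337). Rpia, which isomerizes ribose-5-phosphate in the pentose phosphate branch, fell from 26.5, 33.9 and 30.6 to 25.9, 21.2, 19.5, 22.2 and 19.4 (0.0353). For both genes the groups did not overlap. Their calls were lost in 9 of 17 and 7 of 18 alternatives. That of Pdp2 was lost without any 1 of the controls, without cKO 1, cKO 2 or cKO 5 and in the main title series alone (adjusted p = 0.0563), and that of Rpia without control 2, control 3, cKO 2, cKO 3, cKO 4 or cKO 5.

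Among 23 further hypoxia targets, 19 were tested, 1 was called higher and 3 lower (21.1% against 14.3% of all tested genes). Car9, the membrane carbonic anhydrase that serves as a hypoxia marker in tumours, fell from 63.4, 83.6 and 19.4 to 3.31, 1.07, 2.58, 3.13 and 1.43 (log2 fold change -3.92 ± 0.45, adjusted p = 0.00142), a call that held in 18 of 18 alternatives. Even the lowest control, control 3, stood well above every cKO library. Ddit4, a stress-induced brake on mTORC1, fell from 90.5, 77.6 and 70.0 to 67.1, 51.1, 40.3, 35.6 and 39.6 (adjusted p = 0.0349). The call of Ddit4 was lost in 8 of 18 alternatives, with adjusted p of up to 0.13: without any 1 of the controls, without cKO 3, cKO 4 or cKO 5, without the filter and with the stromal and muscle term. Pdgfb, a growth factor gene, fell from 4.76, 5.23 and 6.76 to 3.38, 1.6, 2.22, 1.65 and 0.999 (adjusted p = 0.0141), and this call was lost without control 2 (0.0639), without control 3 (0.0766) and with the stromal and muscle term (0.067). Selenbp1, a selenium-binding protein with methanethiol oxidase activity, rose from 70.9, 46.3 and 40.6 to 116, 191, 108, 159 and 258 (log2 fold change 1.61 ± 0.30, adjusted p = 0.0111), a call likewise lost without control 2 (0.0639), without control 3 (0.0634) and with that term (0.0573). Of the 19 tested, 9 had a positive and 10 a negative log2 fold change. The groups did not overlap for 2 that were higher and 6 that were lower (42.1% against 24.6% of all tested genes). The members of the wider hypoxia list thus did not share a direction, though more of those without overlap were lower.

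**Figure D5:**
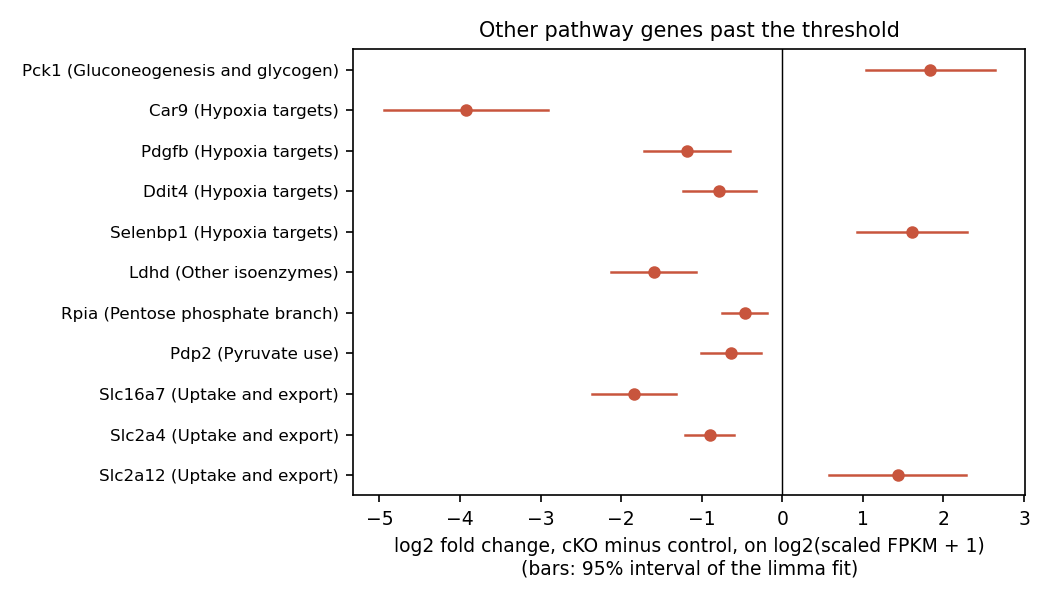
Log2 fold changes (cKO minus control, horizontal axis) of the 11 called genes among 65 tested further genes of glycolysis, pyruvate use and hypoxia, with bars for the 95% interval of the limma fit. The list runs from Car9 at -3.92 to Pck1 at 1.84, with 8 genes below 0 and 3 above.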

How the data were processed

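RNA of 3 control and 5 cKO libraries was compared, grouped by the genotype label. Per the labels' protocols, cDNA was primed with random and poly-dT primers (NuGEN Ovation). The authors used TopHat and Cufflinks on mm10, with bcl2fastq 1.8.3, per the submitters' processing notes; no other version, annotation release or strand setting is given in the sources used here. Deposited by the authors were FPKM values of 34535 RefSeq transcripts per library, with 95% intervals and a status, per the file headers. The deposited coverage was used only to look at depth. Depth was estimated from the widths of the FPKM intervals; no read counts were used.

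Rows were joined by transcript identifier and FPKM summed per symbol; 15 symbols with a status other than OK in any library were left out. A median-ratio factor per library, taken over 9939 genes whose FPKM reached 1 everywhere, put the libraries on 1 scale (0.924 to 1.06). Genes that reached a scaled FPKM of 1 in 3 or more libraries entered a two-sided limma fit with trended variance (version 3.58.1, R 4.3.3) of log2(scaled FPKM + 1), with Benjamini-Hochberg adjustment over all tested genes; transcripts were fitted likewise. Group values are mean ± SD, and fold changes carry the SE of the fit. Sums and shares over isoenzymes have no test. The script was tested on simulated data. The members, gene lists and tests were chosen with earlier results of these data known. Values in every library are given for members called or without overlap between groups, for the most abundant gene of each step, for Hif1a, Epas1 and Vegfa, for the called further pathway genes (up to 3 per class by adjusted p), and for Slc2a1, Slc16a3 and Car9; those of Hk2, Aldoc, Pfkfb3, Eno2, Egln3, Ddit4, of the remaining hypoxia targets and of other single genes shown in full were chosen after their values were seen. Tried beside this were unscaled FPKM, TPM, quantile normalization, another pseudocount (0.1), no filter or one at FPKM 5, untrended variance, array weights, leaving out each library, the main title series alone, and a stromal and muscle marker term.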

Additional observations from a re-analysis of the deposited data

How the results depend on the processing

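Of the members' calls, that of Ldhb held under every alternative tried, while those of Hk1 and Pfkp ended under the alternatives named beside them. With array weights 1793 genes were called higher and 1733 lower, 5 members higher and 4 lower, and 12 further pathway genes higher and 15 lower. With TPM 512 genes were higher and 1616 lower, 5 members lower and 14 further pathway genes lower. With the stromal and muscle term 367 genes were higher and 306 lower, and of the further pathway genes 0 higher and 4 lower. Without scaling 642 genes were higher and 842 lower of 11337 tested, and 1 member was lower. Quantile normalization gave 763 higher and 980 lower of 11315 tested genes, and 4 members lower. The filter at FPKM 5 gave 710 higher and 537 lower of 8037 tested genes, and 1 further pathway gene higher and 4 lower. Leaving out 1 library at a time gave 238 to 935 genes higher and 176 to 892 lower, 1 to 3 members higher and 0 to 1 lower, and 0 to 7 further pathway genes higher and 4 to 7 lower; the fewest calls came without control 2 (238 and 186) and without control 3 (243 and 176), and without control 1 there were 437 lower. The cause of these shifts was not tested, except that fewer libraries or genes entered some fits.

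Members that were not called, and Slc2a1 of the further pathway genes, could change sign. With TPM the log2 fold change was -0.082 for Hk2, -0.196 for Pfkl, -0.13 for Aldoa, -0.011 for Pgam1, -0.137 for Pkm, -0.086 for Epas1 and -0.127 for Slc2a1. With quantile normalization it was -0.082 for Hk2, -0.203 for Pfkl, -0.268 for Aldoa, -0.035 for Gapdh, -0.085 for Pgam1, -0.199 for Pkm, -0.029 for Ldha and -0.157 for Slc2a1. In the main title series alone it was -0.041 for Hk2, -0.095 for Pfkl, -0.037 for Aldoa and -0.138 for Slc2a1. Without scaling Pfkl was at -0.054, and with the stromal and muscle term at -0.089. With array weights Gpi1 was at 0.043 and Tpi1 at 0.018. Leaving out 1 library at a time gave -0.04 to 0.056 for Gpi1, -0.047 to 0.087 for Pfkl, -0.058 to 0.034 for Tpi1, -0.013 to 0.136 for Pkm, -0.005 to 0.195 for Epas1, -0.315 to 0.052 for Vegfa, -0.041 to 0.18 for Slc2a1 and -1.167 to 0.2 for the M1 transcript of Pkm. No paired analysis was possible because the labels give no replicate numbers shared between the groups and no pairing of animals. The number of libraries limits the precision: with 3 controls, leaving out control 2 or control 3 decided several calls. Pdk4 and Fbp1, below FPKM 1 in every library, have no test.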
